A study of Mus musculus with 8 samples.

Results

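Levels of 36 liver genes of fatty acid oxidation and of the fatty acid sensor PPARalpha were followed in mice lacking the transcription factors STAT5a and STAT5b in hepatocytes. The 36 were taken by symbol from 24197 listed genes, and all 36 were present: 7 genes of fatty acid entry and carnitine exchange, 9 of mitochondrial beta-oxidation, 9 of peroxisomal oxidation, 4 acyl-CoA thioesterases and 7 genes of ketogenesis, regulation or other PPARalpha-dependent functions. The series compared 4 groups with 2 ribosome-depleted, stranded RNA-seq libraries each: KO males, control males, KO females and control females, all 8 to 12 weeks old. KO mice carried a floxed Stat5a-Stat5b locus and a Cre transgene under the albumin promoter, from FVB/N mice, on a mixed C57BL/6 x 129J background, and controls carried the floxed locus. Albumin promoter activity confines Cre largely to hepatocytes, and whether other liver cells kept both genes was not tested. Each library came from a pool of livers, and the number of animals per pool is not stated in the labels. The p-values therefore measure the spread between pools, not between animals.

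Fatty acids are activated to acyl-CoA, carried into mitochondria as carnitine esters by CPT1, the carnitine-acylcarnitine translocase and CPT2, and shortened there by repeated cycles of dehydrogenation, hydration, dehydrogenation and thiolysis. Very long-chain and branched fatty acids enter peroxisomes first through ABC transporters of the D family, and acetyl-CoA made in liver mitochondria feeds ketone body synthesis. PPARalpha, the nuclear receptor that binds fatty acids in hepatocytes, pairs with RXR on direct repeats in the DNA and is known for switching on much of this pathway in fasting. STAT5 is the transcription factor through which growth hormone acts on liver, and the pulsatile male pattern of growth hormone activates it differently from the female pattern.

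Library totals ran from 6192515 fragments in the shallower control male library to 34651386 in the deeper control female library. Values of single libraries were recovered from the deposited group means (see the processing notes), and in each pair below the deeper library of a group stands first and the shallower second. Both targeted genes were lower in KO livers: in the authors' deposited table, Stat5a was 4.49-fold lower in males and 2.99-fold lower in females, and Stat5b 2.97-fold and 2.58-fold lower, with edgeR adjusted p-values of at most 0.024. All 10 hepatocyte markers were detected in every library. Levels are in FPKM (fragments per kilobase of gene length, relative to the library total). The 10 summed to 16200 and 17300 FPKM in KO males, against 22700 and 17600 FPKM in control males. In KO females they summed to 21300 and 18300 FPKM, against 19700 and 22100 FPKM in control females. The summed level of 9 macrophage markers was 68.6 and 64.9 FPKM in KO males, against 42.7 and 45.3 FPKM in control males, and 59.1 and 78.8 FPKM in KO females, against 59.5 and 53.9 FPKM in control females. The 5 bile duct markers summed to 37.7 and 28.9 FPKM in KO males, against 2.75 and 6.85 FPKM in control males, and to 6.15 and 9.32 FPKM in KO females, against 5.62 and 5.12 FPKM in control females. At an adjusted p under 0.05, the authors' edgeR test called 1 of these 5, Spp1, higher in KO males than in controls. It also called 1 of the 9 macrophage markers, C1qa, higher there, and 1 of the 10 hepatocyte markers, Serpina1c, lower there. Of all listed genes, 2.18% were called in that comparison. A sum does not show that each marker moved. Adipocyte markers summed to at most 2.72 FPKM, with Adipoq, Lep and Retn at 0 in every library, and heart or skeletal muscle markers to at most 1.28 FPKM. The part of these cells in the results was not tested, and in bulk liver fewer cells of a type and less RNA per cell cannot be told apart. FPKM of genes in general ran higher in KO females than in control females by 0.14 (log2), and in control males than in control females by 0.13, against shifts of -0.01 between KO males and control males and -0.02 between KO males and KO females. The authors' normalized edgeR ratios and the FPKM scaled here by the median of ratios remove this shift, and overlap between groups was judged on the scaled values. The summed level of the 7 stellate cell markers was lower in males. It was 23.7 and 30.1 FPKM in KO males, against 39.7 and 38.4 FPKM in KO females. In control males it was 26.7 and 37.1 FPKM, against 41.3 and 42.2 FPKM in control females. Of these 7, only Lrat was called by the authors' edgeR test, lower in males in control and in KO livers. The first code in the library titles differs between KO females and control females, between control males and control females, and between KO males and KO females, so that code cannot be told apart from genotype in females or from sex in either genotype. In males, 1 KO library shares its code with the control libraries.

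The 36 genes spanned 0.387 FPKM (Fgf21, averaged over the 4 groups) to 1030.4 FPKM (Fabp1). A mean of at least 10 FPKM was reached by 26 of the 36, 7 lay between 1 and 10 FPKM, and 3 lay under 1 FPKM. Fabp1, the liver fatty acid-binding protein, was followed by the mitochondrial thiolase Acaa2 at 142 FPKM, the acyl-CoA synthetase Acsl1 at 89.0 FPKM and the peroxisomal thiolase Acaa1b at 80.7 FPKM. The genes of mitochondrial beta-oxidation varied little over the 8 libraries, whereas Slc22a5, Abcd2, the thioesterases, Pdk4, Vnn1 and Fgf21 varied most. The deeper KO female library stood apart: it exceeded the shallower KO female library in 35 of the 36 genes on the deposited scale, by a median of 0.37 (log2), and in 34 on the scaled one, and held the highest value of the 8 libraries for 22 of the 36. The deeper control male library exceeded the shallower one in 32 of the 36 on the scaled values.

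**Figure D1:**
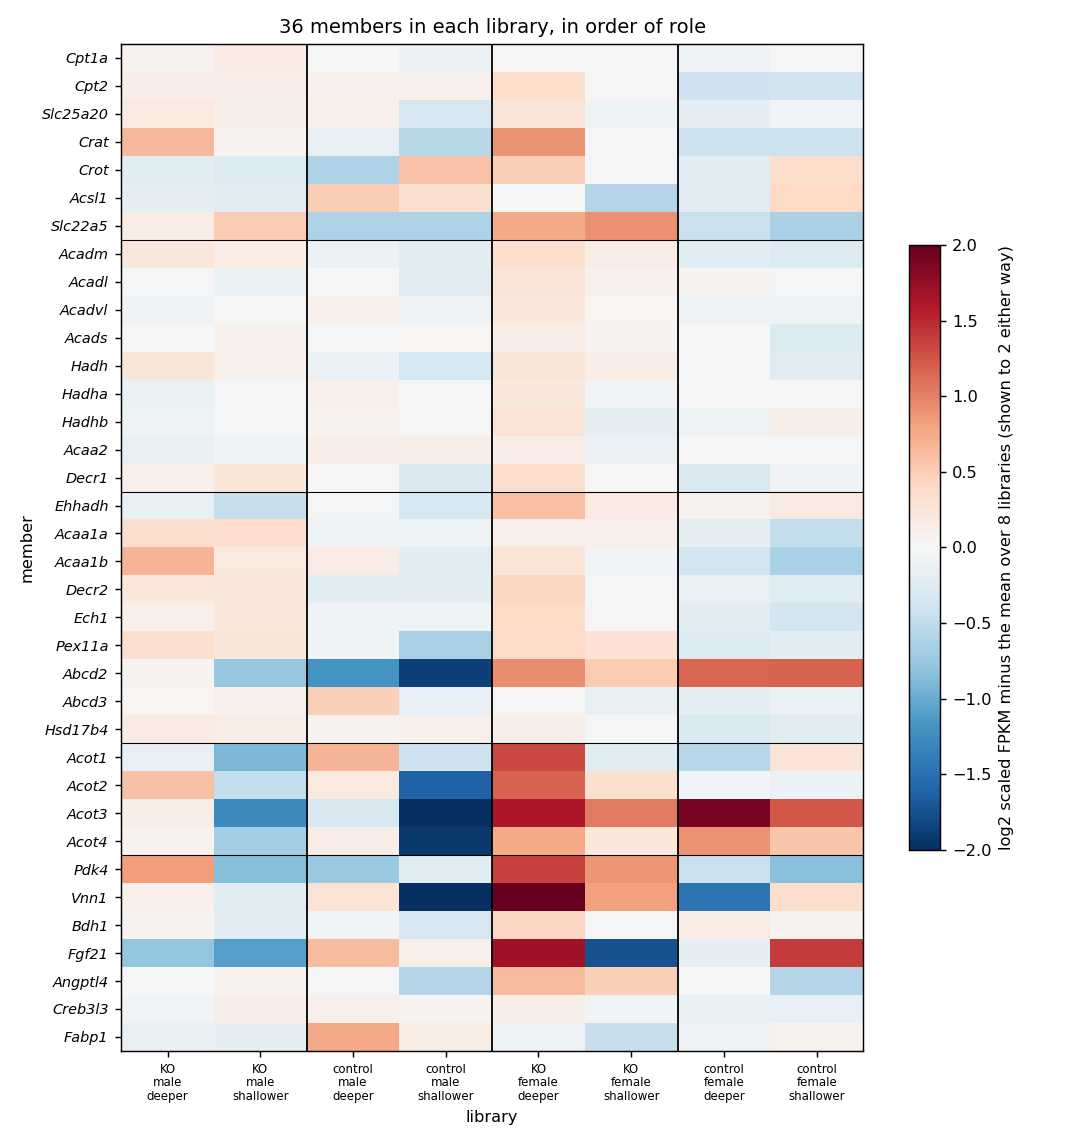
Level of each of the 36 genes (rows, in order of role) in each of the 8 libraries (columns), as log2 scaled FPKM minus the gene's mean over the 8 libraries; red is above and blue below that mean, and black lines part groups and roles. The deeper KO female library is above the shallower one for 34 of the 36 genes.

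Promoter windows from 250 bases before to 50 bases after the transcription start, taken from RefSeq on GRCm38.p6, were found for 29 of the 36 genes, with 34 starts. They were searched on both strands for the DR1 repeat bound by PPAR and RXR, which is AGGTCA followed by any 1 base and AGGTCA again, with at most 3 mismatches in the fixed letters, and for TTCNNNGAA, the palindrome bound by STAT factors. The repeat was found in 29.4% of these windows, against 24.6% of all 32851 windows, and with at most 2 mismatches in 11.8%, against 3.86% of all. The palindrome was found in 8.82% of them, against 8.3% of all, in the windows of Cpt2, Hadha and Hadhb; the Hadha and Hadhb windows overlap and hold the same site, so the 3 windows hold 2 sites. A match is a description of letters, not of binding. Fabp1 is shown because it is the most abundant gene and its window holds the closest match, with 1 mismatch, beginning 67 bases before the start; Acot4 because its match, with 2 mismatches, begins 13 bases before the start. Hadha is shown because the window lies in the shared promoter of a divergent pair, Hadha and Hadhb, whose starts are 273 bases apart, and holds the STAT palindrome; Slc22a5 because that gene was called in both sexes, and its window holds neither motif within these limits. The capitals mark the matches. The windows lie at chr6:71199629-71199928 on the plus strand (Fabp1), chr12:84038129-84038428 on the plus strand (Acot4), chr5:30154931-30155230 on the minus strand (Hadha) and chr11:53891654-53891953 on the minus strand (Slc22a5), and each is written along the gene's strand.
Fabp1: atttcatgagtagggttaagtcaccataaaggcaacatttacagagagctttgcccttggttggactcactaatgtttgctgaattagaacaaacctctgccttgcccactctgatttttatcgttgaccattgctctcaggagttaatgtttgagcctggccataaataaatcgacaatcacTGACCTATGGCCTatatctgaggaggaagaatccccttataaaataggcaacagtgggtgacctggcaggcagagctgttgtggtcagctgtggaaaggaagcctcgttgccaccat
Acot4: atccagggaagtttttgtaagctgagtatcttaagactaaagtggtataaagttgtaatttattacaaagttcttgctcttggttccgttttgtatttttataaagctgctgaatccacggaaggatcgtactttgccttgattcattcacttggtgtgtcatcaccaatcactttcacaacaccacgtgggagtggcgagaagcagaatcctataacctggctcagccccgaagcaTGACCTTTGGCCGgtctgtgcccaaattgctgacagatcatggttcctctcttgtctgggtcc
Hadha: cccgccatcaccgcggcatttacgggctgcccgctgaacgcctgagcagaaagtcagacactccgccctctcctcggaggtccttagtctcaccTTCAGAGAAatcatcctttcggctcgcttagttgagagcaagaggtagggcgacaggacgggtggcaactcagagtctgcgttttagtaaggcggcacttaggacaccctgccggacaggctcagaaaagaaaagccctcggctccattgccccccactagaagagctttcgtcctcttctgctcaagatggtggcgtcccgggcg
Slc22a5: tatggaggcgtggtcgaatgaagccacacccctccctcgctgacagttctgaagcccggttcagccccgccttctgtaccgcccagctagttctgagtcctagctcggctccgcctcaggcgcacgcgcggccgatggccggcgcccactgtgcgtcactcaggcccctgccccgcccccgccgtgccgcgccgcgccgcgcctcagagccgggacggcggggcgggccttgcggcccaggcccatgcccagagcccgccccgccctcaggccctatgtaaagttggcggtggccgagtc

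In male livers, the comparison asks what loss of STAT5a and STAT5b did to these genes where growth hormone is pulsatile. Slc22a5, the plasma membrane carnitine transporter, and Abcd2, a peroxisomal transporter of very long-chain acyl-CoA, rose in KO males. None of the 36 was called lower. These 2 calls of the authors' edgeR test, at an adjusted p under 0.05, compare with 2.18% of all listed genes called in either direction, and with 2.73% called higher and 1.58% called lower of the 8974 genes with a mean of at least 1 FPKM. On the refits of the recovered libraries, limma on log2(FPKM + 1) called 0 of the 36 (0.305% of its genes), and limma voom called 1, Slc22a5 (1.5% of its genes). An unadjusted limma p under 0.05 was found for 8 of the 36 (22.2%), against 12% of genes of at least 1 FPKM. The authors' deposited table gives ratios above 1 for 24 of the 36 (66.7%), against 45.9% of genes of at least 1 FPKM. The median log2 ratio was 0.21, against -0.02 over genes of at least 1 FPKM. Both KO libraries lay above both control libraries for 16 of the 36, or 44.4%, against 20.2% of genes of at least 1 FPKM, and below both for 5, against 25.9%. On the scaled values the median was 0.20 with all 4 libraries, 0.05 without the deeper KO male library and 0.05 without the shallower control male library.

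In KO females, 5 of the 36 rose: Slc22a5, the carnitine acetyltransferase Crat, the pyruvate dehydrogenase kinase Pdk4, the pantetheinase Vnn1 and Angptl4, a secreted inhibitor of lipoprotein lipase. None fell. Over all listed genes 1.55% were called by the authors' edgeR test, and of genes of at least 1 FPKM 2.31% were called higher and 1.09% lower. Limma on log2(FPKM + 1) called 0 of the 36 (0.0333% of its genes), and limma voom called 1, Slc22a5 (0.339% of its genes). An unadjusted limma p under 0.05 was found for 18 of the 36 (50%), against 11.5% of genes of at least 1 FPKM, and on the scaled values for 13, against 9.22%. Of the 36 female ratios in the authors' deposited table, 31 (86.1%) were above 1, against 51.5% of genes of at least 1 FPKM. The median log2 ratio was 0.26, against 0.01 over genes of at least 1 FPKM. Both KO libraries lay above both control libraries for 20 of the 36, or 55.6%, against 22.9% of genes of at least 1 FPKM, and below both for 2, Abcd2 and Fabp1, against 20.8%. Without the deeper KO female library the median fell to 0.12 on the scaled values, against 0.25 with it, while the count above both controls was again 20 (background 35.4%). Without the shallower KO female library the count was 31 (background 34.5%). In both sexes 13 of the 36 (36.1%) lay above both controls, against 9.08% of genes of at least 1 FPKM. These 13 are 81.2% of the genes above both controls in males and 65% of those in females, against 45% and 39.7% for genes of at least 1 FPKM.

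**Figure D2:**
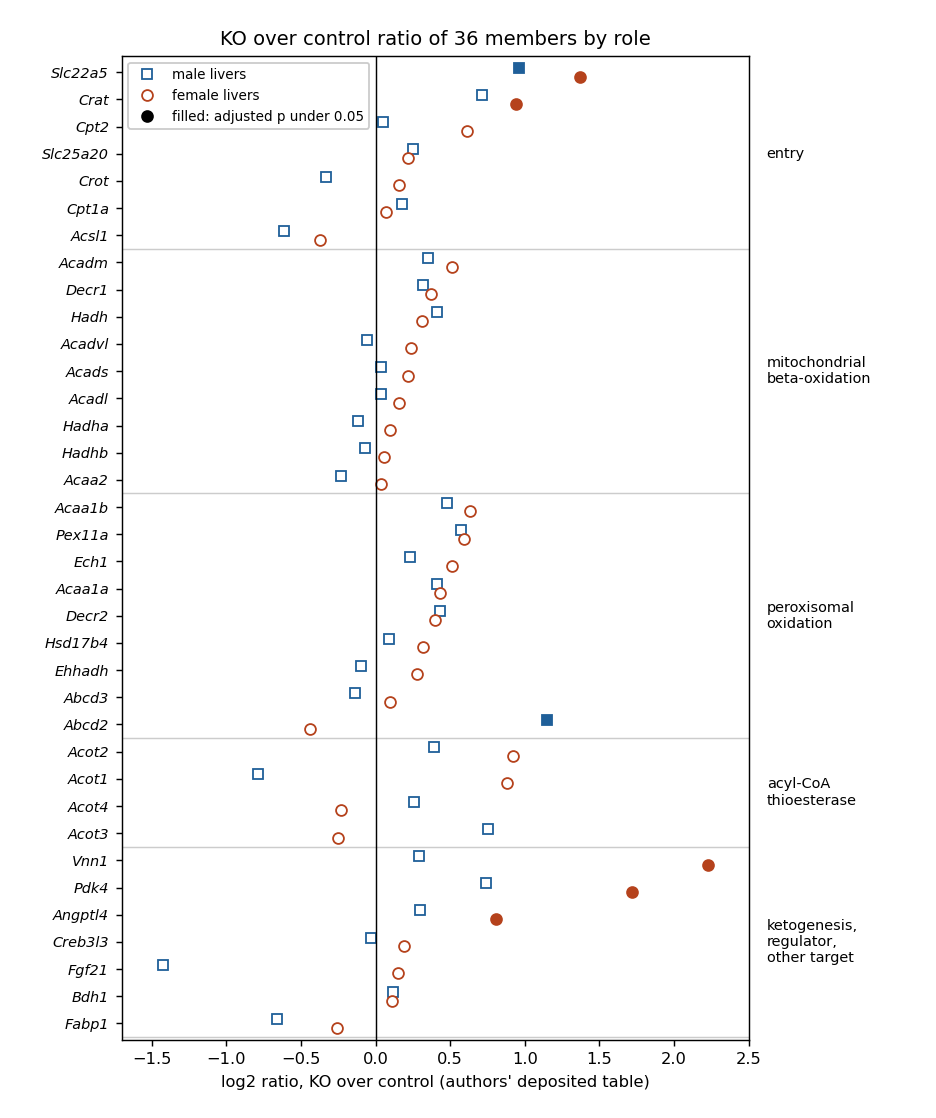
KO over control log2 ratio of the authors' edgeR test (horizontal axis) for each of the 36 genes, grouped by role, in male livers (squares) and female livers (circles), with filled symbols at an adjusted p under 0.05. The filled male symbols are Slc22a5 and Abcd2, the filled female symbols are Slc22a5, Crat, Vnn1, Pdk4 and Angptl4, and 31 of the 36 female ratios lie right of 0.

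Of the 7 genes that bring fatty acids and carnitine to the oxidation machinery, Slc22a5 rose in both sexes. Slc22a5 (NM_011396, chromosome 11, 53678043 to 53705205 on mm9) had 4.13 and 5.70 FPKM in KO males, against 2.38 and 2.70 FPKM in control males. It had 6.68 and 7.33 FPKM in KO females, against 2.67 and 2.23 FPKM in control females. The groups did not overlap in either sex. In the authors' deposited table, the ratio was 1.95-fold in males (adjusted p 0.0043) and 2.58-fold in females (adjusted p 1.4e-09). Limma voom gave log2 ratios of 0.94 ± 0.17 (SE) with an adjusted p of 0.033 in males and 1.36 ± 0.15 with an adjusted p of 0.011 in females.

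Crat (NM_007760, chromosome 2, 30255995 to 30271268), which moves short acyl groups between CoA and carnitine, had 4.41 and 3.15 FPKM in KO males, against 2.46 and 2.13 FPKM in control males. It had 5.52 and 2.85 FPKM in KO females, against 2.03 and 1.95 FPKM in control females. The KO libraries were higher in both sexes, with the deeper one well above the shallower one in each KO group. The authors' deposited table gives 1.92-fold with an adjusted p of 0.042 in females, and 1.63-fold with an adjusted p of 0.21, above the threshold, in males; by limma voom the female adjusted p was 0.42.

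Acsl1, the main long-chain acyl-CoA synthetase of liver, had 74.3 and 77.9 FPKM in KO males, against 116 and 119 FPKM in control males, and 90.5 and 59.1 FPKM in KO females, against 70.7 and 104 FPKM in control females. The male groups did not overlap and the female groups did; the authors' deposited table gives 1.53-fold lower in KO males with an adjusted p of 0.14. Crot, the peroxisomal carnitine octanoyltransferase, had 58.9 and 60.8 FPKM in KO males, against 43.5 and 113 FPKM in control males, and 101 and 70.0 FPKM in KO females, against 57.3 and 81.4 FPKM in control females. Its control male libraries differed more from each other than any of the group means did. Cpt1a, the rate-limiting carnitine palmitoyltransferase of the outer membrane, averaged 42.5 ± 4.16 FPKM in KO males and 38.0 ± 1.76 in control males, and 40.0 ± 1.03 in KO females and 34.7 ± 0.398 in control females (SD, n = 2). Cpt2, which releases acyl-CoA on the matrix side, averaged 19.8 ± 0.915 FPKM in KO males and 19.3 ± 1.72 in control males, and 20.97 ± 3.46 in KO females and 12.5 ± 0.306 in control females (SD, n = 2). In the authors' deposited table, Cpt2 was 1.53-fold higher in KO females with an adjusted p of 0.084. Slc25a20, the carnitine-acylcarnitine translocase, averaged 17.9 FPKM in KO males and 14.99 in control males, and 17.4 in KO females and 13.6 in control females. These female means hold the shift of 0.14 (log2) between KO and control females. The authors' normalized female ratios were 1.05 for Cpt1a and 1.16 for Slc25a20, and on the scaled values the female libraries of both genes overlapped. The 7 genes summed to 223 and 220.2 scaled FPKM in KO males, against 246.3 and 283.8 in control males, and to 277.6 and 207.1 in KO females, against 201.6 and 275.2 in control females.

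**Figure D3:**
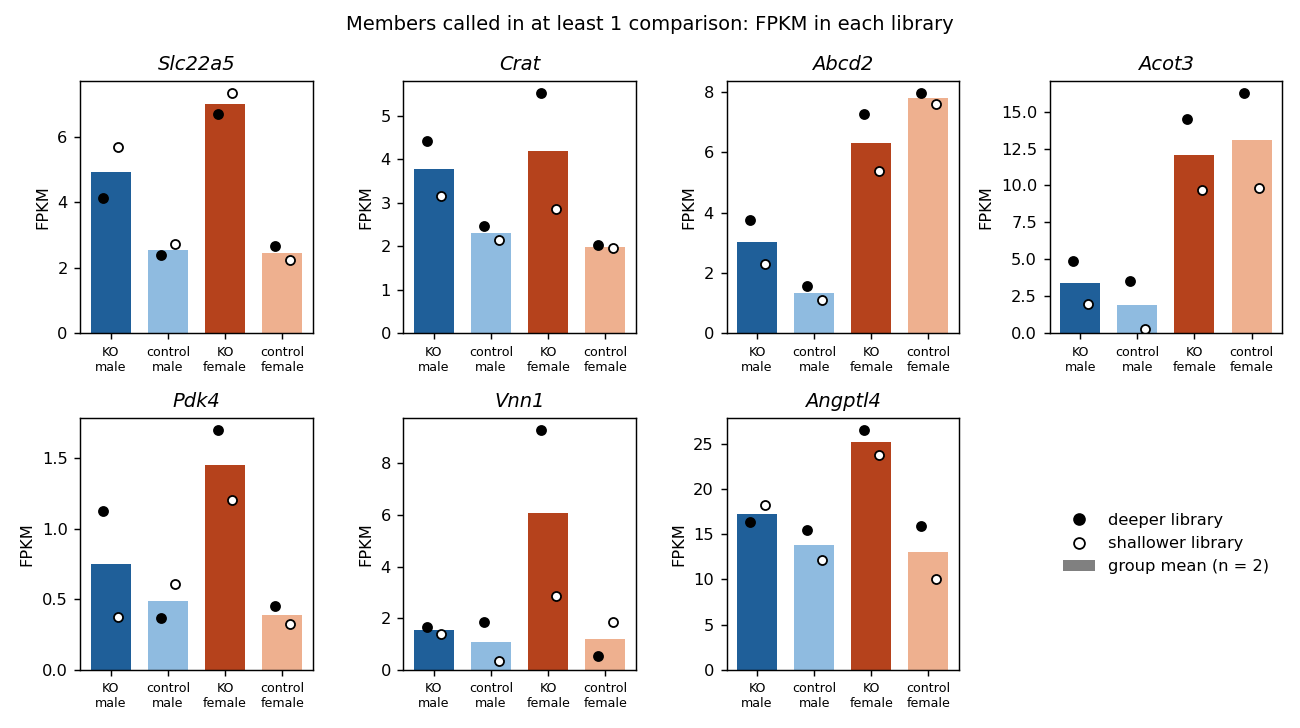
FPKM in each library (vertical axes, from 0) of the 7 genes called by the authors' edgeR test in at least 1 of the 4 comparisons, in KO males, control males, KO females and control females (left to right); bars are group means of 2 libraries, filled points the deeper library and open points the shallower. Slc22a5 is higher in every KO library than in any control library, Abcd2 and Acot3 are lower in males than in females, and the 2 KO female libraries of Vnn1 are 9.31 and 2.85 FPKM.

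None of the 9 mitochondrial beta-oxidation genes was called in either sex. In the authors' deposited table, all 9 female ratios were above 1, from 1.03 (Acaa2) to 1.43 (Acadm), with a median log2 ratio of 0.22, and 5 of 9 male ratios were, from 0.851 to 1.33, with a median of 0.04. Of genes of at least 1 FPKM, 51.5% had a ratio above 1 in females and 45.9% in males. Acadm, the medium-chain acyl-CoA dehydrogenase, had 69.5 and 71.5 FPKM in KO males, against 54.1 and 57.6 FPKM in control males, and 81.4 and 70.1 FPKM in KO females, against 50.3 and 46.4 FPKM in control females. Hadh, the short-chain hydroxyacyl-CoA dehydrogenase, had 67.8 and 65.7 FPKM in KO males, against 50.9 and 50.4 FPKM in control males, and 71.9 and 66.0 FPKM in KO females, against 54.8 and 46.4 FPKM in control females. For both genes the KO libraries lay above the control libraries in both sexes, on the deposited and the scaled values. The authors' deposited table gives adjusted p-values of 0.19 and 1 for Acadm and Hadh in females and of 1 and 0.84 in males, none past the threshold. Acaa2, the mitochondrial thiolase, had 124 and 142 FPKM in KO males, against 149 and 168 FPKM in control males, and 160 and 133 FPKM in KO females, against 135 and 125 FPKM in control females. In males, both KO libraries of Acaa2 and of Hadha lay below both controls, on the deposited and the scaled values. On the scaled values, 3 of the 9 genes (33.3%) lay above both controls in males, against 20.2% of genes of at least 1 FPKM. Below both lay 2, against 25.9%. In females 6 (66.7%) lay above, against 22.9%, and 0 below, against 20.8%.

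Decr1, the dienoyl-CoA reductase needed for unsaturated fatty acids, averaged 19.3 ± 2.44 FPKM in KO males and 15.5 ± 0.838 in control males, and 19.7 ± 3.57 in KO females and 13.8 ± 1.10 in control females (SD, n = 2). The remaining dehydrogenases stayed close to their controls in males: very long-chain Acadvl averaged 46.9 FPKM in KO males and 49.3 in control males, long-chain Acadl 31.9 and 31.3, and short-chain Acads 22.2 and 22.0. In females Acadvl averaged 53.6 FPKM in KO and 41.4 in control livers, Acadl 38.7 and 31.4, and Acads 23.4 and 18.2. These female means hold the shift of 0.14 (log2) between the 2 groups. The authors' normalized female ratios, which remove it, were 1.18 for Acadvl, 1.12 for Acadl and 1.17 for Acads. Hadha and Hadhb, the subunits of the trifunctional protein that share the divergent promoter shown above, averaged 25.7 and 35.5 FPKM in KO males, against 28.2 and 37.8 FPKM in control males, and 29.3 and 39.4 FPKM in KO females, against 24.9 and 34.4 FPKM in control females. Their ratios differed from 1 by at most 1.12-fold in all 4 comparisons, with adjusted p-values of 1 in the authors' deposited table. The 9 genes summed to 443 and 447.5 scaled FPKM in KO males, against 454.6 and 423.1 in control males, and to 518 and 444.1 in KO females, against 425 and 415.2 in control females.

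Of the 9 peroxisomal genes, Abcd2 rose in KO males and none was called in KO females. Ratios above 1 were listed in the authors' deposited table for 7 of 9 in males (median log2 ratio 0.41) and 8 of 9 in females (median 0.40). For genes of at least 1 FPKM the shares above 1 were 45.9% in males and 51.5% in females. Abcd2 (NM_011994, chromosome 15, 90976301 to 91022238) had 3.76 and 2.29 FPKM in KO males, against 1.55 and 1.11 FPKM in control males. It had 7.26 and 5.38 FPKM in KO females, against 7.97 and 7.62 FPKM in control females. The male KO libraries lay above their controls and the female KO libraries below theirs. The authors' deposited table gives 2.22-fold higher in KO males (adjusted p 0.01) and 1.35-fold lower in KO females (adjusted p 0.65); by limma voom the male adjusted p was 0.2.

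Acaa1b, a peroxisomal thiolase, had 122 and 93.1 FPKM in KO males, against 82.5 and 73.3 FPKM in control males, and 96.7 and 76.5 FPKM in KO females, against 57.0 and 44.9 FPKM in control females. Its close copy Acaa1a averaged 27.6 ± 1.69 FPKM in KO males and 21.1 ± 1.87 in control males, and 23.97 ± 0.00713 in KO females and 16.1 ± 2.84 in control females (SD, n = 2). Both were higher in every KO library of a sex than in its controls, though neither passed the threshold, with adjusted p-values of 0.079 for Acaa1b and 0.54 for Acaa1a in females in the authors' deposited table. The transcripts share 34% and 35.5% of their 50-base stretches, so reads may be split between them. Ech1, a dienoyl-CoA isomerase grouped here with the peroxisomal genes, had 53.1 and 61.3 FPKM in KO males, against 46.3 and 52.4 FPKM in control males. It had 69.0 and 52.5 FPKM in KO females, against 41.7 and 35.7 FPKM in control females. Pex11a, which promotes peroxisome division, averaged 14.2 ± 0.214 FPKM in KO males and 9.25 ± 1.65 in control males, and 14.96 ± 0.795 in KO females and 9.06 ± 0.0895 in control females (SD, n = 2). Its ratios were 1.48-fold and 1.51-fold, with adjusted p-values of 0.4 and 0.1 in the authors' deposited table, and its libraries did not overlap in either sex.

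Decr2, the peroxisomal dienoyl-CoA reductase, averaged 33.0 FPKM in KO males and 24.8 in control males, and 33.6 in KO females and 23.3 in control females. Abcd3, the most abundant peroxisomal fatty acyl-CoA transporter measured here, had 57.2 and 63.6 FPKM in KO males, against 76.2 and 56.1 FPKM in control males, and 60.0 and 52.8 FPKM in KO females, against 48.3 and 47.6 FPKM in control females. Hsd17b4 and Ehhadh encode the bifunctional enzymes of the peroxisomal cycle. Hsd17b4 had 55.2 and 59.1 FPKM in KO males, against 50.1 and 59.4 FPKM in control males, and 56.7 and 50.7 FPKM in KO females, against 39.3 and 39.0 FPKM in control females. Ehhadh averaged 23.7 ± 2.33 FPKM in KO males and 25.6 ± 1.48 in control males, and 38.9 ± 8.53 in KO females and 29.1 ± 0.512 in control females (SD, n = 2). The authors' normalized female ratios were 1.07 for Abcd3 and 1.21 for Ehhadh, and on the scaled values the female libraries of both genes overlapped. Summed over the 9 genes, scaled FPKM were 397 and 360.1 in KO males, against 351.7 and 295.6 in control males, and 399.1 and 329.2 in KO females, against 287 and 273.1 in control females, with no overlap in either sex. Whether this holds without single genes of the 9 was not tested.

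**Figure D4:**
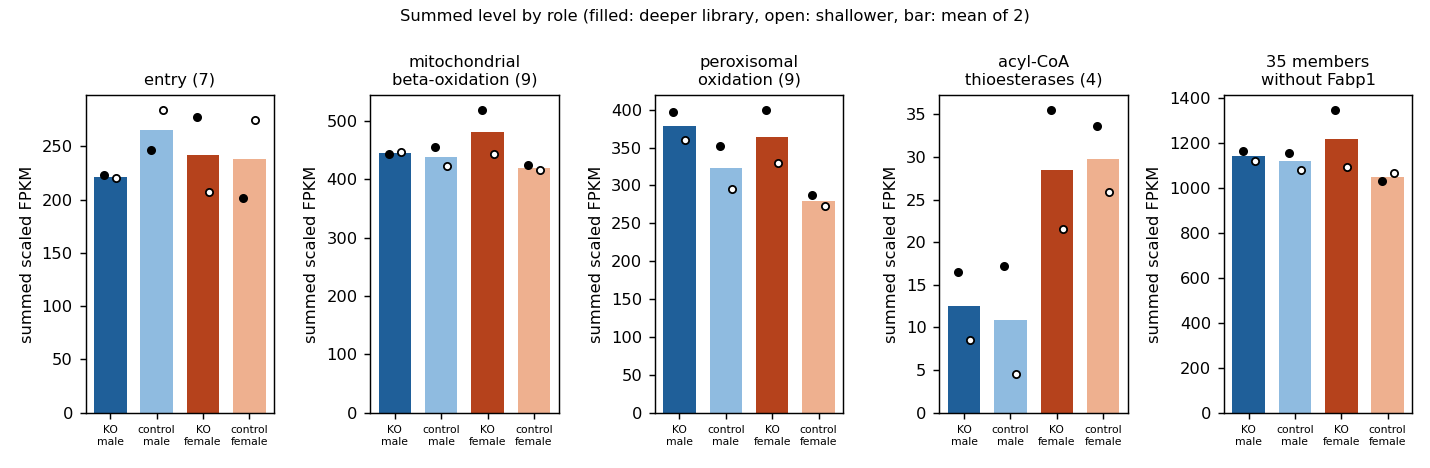
Summed scaled FPKM of the genes of each role (vertical axes, from 0) in KO males, control males, KO females and control females, left to right; bars are means of 2 libraries, filled points the deeper and open points the shallower library. The peroxisomal sum is 397 and 360.1 in KO males against 351.7 and 295.6 in control males, and the thioesterase sum is at most 17.21 in any male library and at least 21.54 in any female library.

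The acyl-CoA thioesterases, which split acyl-CoA into free fatty acid and CoA, were not called for genotype in either sex. Acot3 (NM_134246, chromosome 12, 85393100 to 85400514), a peroxisomal form, had 4.86 and 1.99 FPKM in KO males, against 3.52 and 0.249 FPKM in control males, and 14.5 and 9.68 FPKM in KO females, against 16.3 and 9.85 FPKM in control females. Acot4, also peroxisomal, had 7.70 and 4.85 FPKM in KO males, against 7.83 and 2.15 FPKM in control males, and 13.1 and 8.90 FPKM in KO females, against 13.4 and 10.04 FPKM in control females. Genotype groups overlapped for both genes in both sexes, and the shallower control male library was the lowest, with 4 reads recovered for Acot3. Acot1, the cytosolic form, had 2.41 and 1.57 FPKM in KO males, against 4.23 and 2.28 FPKM in control males, and 7.13 and 2.45 FPKM in KO females, against 1.78 and 3.03 FPKM in control females. Acot2, the mitochondrial form, averaged 0.911 ± 0.417 FPKM in KO males and 0.600 ± 0.432 in control males, and 1.504 ± 0.623 in KO females and 0.729 ± 0.0466 in control females (SD, n = 2). Acot1 and Acot2 share 23.9% and 24.5% of their 50-base stretches, and their split of reads is uncertain.

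Among the genes of ketogenesis, regulation and other PPARalpha-dependent functions, 3 of 7 rose in KO females and none was called in KO males. Pdk4 (NM_013743, chromosome 6, 5433350 to 5446278), which switches off pyruvate oxidation, had 1.12 and 0.373 FPKM in KO males, against 0.368 and 0.608 FPKM in control males. It had 1.70 and 1.21 FPKM in KO females, against 0.451 and 0.327 FPKM in control females. The female groups were well apart and the male groups overlapped. In the authors' deposited table, the female ratio was 3.3-fold with an adjusted p of 3.5e-07; by limma voom it was 1.69 ± 0.53 (log2, SE) with an adjusted p of 0.32.

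Vnn1 (NM_011704, chromosome 10, 23614493 to 23625149), which hydrolyses pantetheine, had 1.65 and 1.40 FPKM in KO males, against 1.83 and 0.334 FPKM in control males, and 9.31 and 2.85 FPKM in KO females, against 0.549 and 1.84 FPKM in control females. Both KO female libraries were above both controls, but the deeper one lay far above the other. The authors' deposited table gives 4.69-fold in females with an adjusted p of 0.0053, where limma voom gave an adjusted p of 0.26. Angptl4 (NM_020581, chromosome 17, 33911844 to 33918520) had 16.3 and 18.2 FPKM in KO males, against 15.5 and 12.1 FPKM in control males, and 26.6 and 23.7 FPKM in KO females, against 15.9 and 10.1 FPKM in control females. Its groups did not overlap in either sex. The female difference was 1.76-fold with an adjusted p of 0.015 in the authors' deposited table, and the male one 1.23-fold with an adjusted p of 1; limma voom gave 0.19 in females.

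Fabp1 (NM_017399, chromosome 6, 71149881 to 71155017) ran the other way: it had 881.1 and 921.3 FPKM in KO males, against 1624 and 1214 FPKM in control males, and 977.4 and 750.0 FPKM in KO females, against 911.8 and 963.9 FPKM in control females. The male groups did not overlap on either scale, and the female groups overlapped on the deposited scale. The authors' deposited table gives 1.58-fold lower in KO males with an adjusted p of 0.25. Because of its abundance Fabp1 set the sum of all 36 genes: without it, the other 35 summed to 1163 and 1120 scaled FPKM in KO males, against 1155 and 1080 in control males, and to 1343 and 1091 in KO females, against 1028 and 1064 in control females. Fgf21, the fasting hormone, had 0.167 and 0.143 FPKM in KO males, against 0.435 and 0.341 FPKM in control males, and 0.972 and 0.0897 FPKM in KO females, against 0.244 and 0.702 FPKM in control females. These values rest on at most 28 recovered reads per library. Creb3l3, a membrane-bound transcription factor active with PPARalpha in fasting, averaged 42.2 ± 6.13 FPKM in KO males and 43.7 ± 3.23 in control males, and 42.5 ± 3.99 in KO females and 33.9 ± 1.36 in control females (SD, n = 2). Bdh1, which makes hydroxybutyrate, averaged 22.7 ± 1.84 FPKM in KO males and 21.1 ± 0.972 in control males, and 28.1 ± 6.36 in KO females and 23.7 ± 1.92 in control females (SD, n = 2). The authors' normalized female ratios were 1.14 for Creb3l3 and 1.08 for Bdh1.

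Between the sexes, Abcd2 and Acot3 were lower in males, in control and in KO livers alike. Among controls 2 of the 36 were lower in males and none higher, where 1.47% of all listed genes were called, and of genes of at least 1 FPKM 1.29% were called higher and 1.5% lower. The authors' deposited table puts Abcd2 6.09-fold lower in control males (adjusted p 4.3e-22) and Acot3 6.79-fold lower (adjusted p 0.00056). For Abcd2, limma on log2(FPKM + 1) (0.355% of its genes called) gave -1.92 ± 0.22 (log2, SE; adjusted p 0.037) and limma voom (0.747% called) an adjusted p of 0.0081, and neither called Acot3. Of the 36 ratios in the authors' deposited table, 18 (50%) were above 1, against 54.2% of genes of at least 1 FPKM. The median log2 ratio was 0.01, against 0.02 over genes of at least 1 FPKM. Both control male libraries lay above both control female libraries for 10 of the 36, against 24.9% of genes, and below both for 5, against 16.9%. On the scaled values the median was 0.03, and 0.17 without the shallower control male library.

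Among KO livers, 3 of the 36 were lower in males and none higher, where 1.01% of all listed genes were called, and of genes of at least 1 FPKM 0.925% were called higher and 0.992% lower. In the authors' deposited table, these were Abcd2 at 2.03-fold (adjusted p 0.02), Acot3 at 3.42-fold (adjusted p 0.00032) and Vnn1 at 3.91-fold (adjusted p 0.00064). Limma on log2(FPKM + 1) (0.0889% of its genes called) and limma voom (0.378%) called 0 of the 36, while 5 and 7 had an unadjusted p under 0.05, against 5.26% and 8.89% of genes of at least 1 FPKM. Ratios in the authors' deposited table were under 1 for 27 of the 36, against 4204 of the 8974 genes of at least 1 FPKM. All 9 mitochondrial genes were among the 27 (0.84 to 0.995). The median log2 ratio of the 36 was -0.12, against 0.01 over genes of at least 1 FPKM. Both KO male libraries lay above both KO female libraries for 4 of the 36, against 22% of genes, and below both for 11, against 18.9%. On the scaled values the median was -0.12, and 0.02 without the deeper KO female library. The comparisons of KO males with control males and with KO females share the KO male libraries, so their values stand side by side and are not correlated here.

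Whether the genotype difference depended on sex was tested with the interaction term of limma on log2(FPKM + 1) over all 18004 genes above 0. It called 0 of the 36 and 0.0111% of genes, and limma voom called 0 of the 36 and 0% of genes. In each fit 3 of the 36 (8.33%) had an unadjusted p under 0.05, against 5.36% of genes of at least 1 FPKM by limma and 4.88% by limma voom. For Abcd2 the male minus female difference of log2 ratios was 1.05 ± 0.31 (SE; limma p 0.014, adjusted p 0.84), with a limma voom p of 0.0062 and adjusted p of 0.79. Cpt2 gave -0.66 ± 0.18 (limma p 0.01, adjusted p 0.84) and Acadvl -0.43 ± 0.15 (limma p 0.025, adjusted p 0.84). Limma voom gave -0.55 for Cpt2 (p 0.013, adjusted p 0.89) and -0.29 for Acadvl (p 0.11, adjusted p 0.96). The limma differences were fitted on unscaled FPKM and hold the KO minus control shifts of -0.01 in males and 0.14 in females (log2). Limma voom removes these shifts. Acot1 was also under 0.05 by limma voom, at -1.85 (p 0.045, adjusted p 0.95). For Vnn1 and Pdk4, called in females and not in males, the differences were -1.21 ± 0.82 and -0.61 ± 0.32 with limma adjusted p-values of 0.84. By limma voom they were -2.39 (p 0.083) and -1.08 (p 0.21), with adjusted p-values of 0.96. A sex difference in the response of Vnn1 and Pdk4 was therefore not shown.

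The receptor itself, Ppara, lay between 18.6 and 25.0 FPKM in all 8 libraries, with ratios of 1.09 in males and 1.01 in females and adjusted p-values of 1 in the authors' deposited table. Of 15 regulators, which include RXR and the coactivators of PPARalpha, none was called in KO males and Pparg, a related receptor known for fat storage, rose in KO females. Over all listed genes, 2.18% were called in males and 1.55% in females by the same edgeR test. The median log2 ratio of the 15 in the authors' deposited table was 0.11 in males and 0.09 in females. For genes of at least 1 FPKM it was -0.02 and 0.01. Pparg had 2.35 and 2.35 FPKM in KO females, against 1.06 and 0.938 FPKM in control females, which the authors' deposited table gives as 2.12-fold with an adjusted p of 0.00059.

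Of 42 further fatty acid oxidation genes, 2 rose and 3 fell in KO males, and none was called in KO females. The authors' edgeR test called 2.18% of all listed genes in males and 1.55% in females. Calls of the 42 are given from that test only, with no refit beside them. The 3 that fell act in peroxisomes: Scp2, whose longer product is a thiolase, Hacl1, the lyase of alpha-oxidation, and Nudt7, a CoA diphosphatase. Scp2 had 232 and 313 FPKM in KO males, against 563 and 669 FPKM in control males, and Nudt7 18.8 and 39.0 FPKM in KO males, against 67.2 and 90.4 FPKM in control males. The authors' deposited table gives Scp2 as 2.23-fold lower (adjusted p 2.7e-05), Nudt7 2.7-fold lower (adjusted p 0.00016) and Hacl1 1.9-fold lower (adjusted p 0.0052) in KO males. Acad10, an acyl-CoA dehydrogenase family member, rose 2.08-fold in KO males in the authors' deposited table (adjusted p 0.022). By the authors' deposited table, the median log2 ratio of the 42 was -0.06 in males and 0.11 in females. Over genes of at least 1 FPKM it was -0.02 and 0.01. Among control livers, Scp2 and Nudt7 were 2.61-fold and 2.3-fold higher in males, with adjusted p-values of 9.1e-08 and 0.0072 in the authors' deposited table. Eci3, an enoyl-CoA isomerase, was at 0 in both control male libraries, against 1.67 and 0.494 FPKM in control females, and the authors' deposited table lists 8.66-fold less in KO males than in KO females (adjusted p 3.1e-06).

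Of 22 other PPARalpha targets, which include Ppara and overlap the 42 in 2 genes, 3 were called higher in KO females. None was called lower there, and 1 was called lower in KO males. The shares called over all listed genes were 1.55% in females and 2.18% in males. The median log2 ratio of the 22 in the authors' deposited table was 0.17 in males and 0.45 in females. For genes of at least 1 FPKM it was -0.02 and 0.01. Those higher in KO females were Cyp4a14 and Cyp4a31, of the fatty acid omega-hydroxylase family, and Retsat, the retinol saturase. Cyp4a14 had 69.1 and 21.7 FPKM in KO females, against 7.55 and 14.1 FPKM in control females, so that the deeper KO female library was again the highest. In the authors' deposited table, Cyp4a14 rose 3.79-fold (adjusted p 0.0017), Cyp4a31 3.06-fold (adjusted p 0.00013) and Retsat 2.17-fold (adjusted p 0.0011) in KO females, and Fabp2, the intestinal fatty acid-binding protein, was 2.31-fold lower in KO males (adjusted p 0.00035). Between the sexes, Retsat and Gpd1, the glycerol phosphate dehydrogenase, were higher in control males, at 2.01-fold and 1.84-fold (adjusted p 0.00057 and 0.0087), and Cyp4a10 was lower in control males, at 3.43-fold (adjusted p 8.2e-05), in the authors' deposited table. Among KO livers, Cyp4a10 and Cyp4a14 were 4.52-fold and 5.61-fold lower in males, with adjusted p-values of 0.00052 and 8.8e-05 in the authors' deposited table.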

How the data were processed

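Per the submitters' processing notes, reads were aligned with TopHat2 to mm9, counted with featureCounts and tested with edgeR; the annotation, filters, strand setting and tool versions were not stated. The authors deposited 1 table with the mean FPKM of each of the 4 groups (4 mean columns were repeats) and, per the file headers, an edgeR expression ratio, p-value and adjusted p-value for each comparison. The adjusted p-value equals the Benjamini-Hochberg adjustment over all 24197 genes.

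Each mean FPKM is the average of 2 whole read numbers, each over a library total and the gene length, and its decimals allow both read numbers to be solved. All 18004 genes above 0 were solved, with a largest difference of 2.2e-11 FPKM from the deposited mean; on simulated reads the library FPKM came out right for 437 of 437 genes with 50 or more reads and for 160 of 160 with fewer. Read numbers can be too small by a common factor, which leaves FPKM unchanged. Recovered libraries are told apart only by depth, not by pool number or title code. Reads in genes ran from 2286663 to 11354729 per library, so read-poor genes in the shallower control male library are the least precise, and intervals were not computed.

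Calls are the authors' at an adjusted p under 0.05. The refits used all 8 libraries, with 4 residual degrees of freedom: limma 3.58.1 (R 4.3.3) on log2(FPKM + 1) with mean-variance trend (fold changes of low genes come out too small on this scale), and limma voom on recovered reads of the 12980 genes with at least 10 reads in at least 2 libraries. FPKM was scaled by the median of ratios for overlap and sums. Both fits were tested on simulated data. Alternatives were a pseudocount of 0.1, genes of at least 1 FPKM only, thresholds of 0.01 and 0.1, scaled FPKM and leaving out each library.

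All 36 genes are named. Values per library are given for those called, for the 10 with the highest mean and for those at least 2-fold apart in a comparison with a group mean of at least 0.5 FPKM. The genes and lists were chosen with earlier results of these data known. No gene model of mm9 was used. Values of some genes of these lists are not reported here.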

Additional observations from a re-analysis of the deposited data

Results flagged for a closer look

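For Abcd2, both KO male libraries lay above both control male libraries, while both KO female libraries lay below both control female libraries, on the deposited and on the scaled FPKM. The male minus female difference of its KO over control log2 ratios was 1.05 ± 0.31 (limma on log2(FPKM + 1), SE, adjusted p 0.84), so the difference did not pass the threshold when tested over all genes.

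For Acadvl, both control male libraries lay above both control female libraries, at 48.997 and 49.5 FPKM against 42.5 and 40.3 FPKM, while both KO male libraries lay below both KO female libraries, at 44.2 and 49.5 FPKM against 56.9 and 50.3 FPKM. The same interaction was -0.43 ± 0.15 (limma, SE, adjusted p 0.84), which also did not pass. This limma fit used unscaled FPKM and so holds the scale shifts between groups. By limma voom, which removes them, the Acadvl interaction was -0.29 (adjusted p 0.96). Groups of 2 libraries were not tested for a library far from the others.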

How the results depend on the processing

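The genotype by sex interaction called 0 of the 36 genes under every alternative run. The refits called fewer genes than the authors' test. At an adjusted p under 0.01 the authors' table called 1 gene in KO males against control males, 3 in KO females against control females, 2 in control males against control females and 2 in KO males against KO females. Limma on log2(FPKM + 1), with a pseudocount of 0.1 and on scaled FPKM called 0, 0, 1 and 0 genes in KO males against control males, KO females against control females, control males against control females, and KO males against KO females. Limma over genes of at least 1 FPKM called 0, 1, 1 and 0, and limma voom 1, 1, 1 and 0, in the same order. With each library left out in turn, limma called 0 to 0 in all 4 comparisons; its lone library is assumed to vary like the others, and why it calls fewer genes than the authors' test was not tested. Over 107 alternatives for the 12 called gene comparisons, none reversed the direction, 8 passed the threshold and 99 did not; those that passed were for Slc22a5 in KO livers and Abcd2 between control males and control females. The scaled FPKM was chosen after seeing the data.

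The median log2 ratio between control males and control females was 0.17 and 0.14 from mean FPKM with pseudocounts of 0.1 and 1, which keep the scale shift between the groups, and ran from -0.05 to 0.17 with 1 library left out. The KO male median ran from 0.05 to 0.25, the KO female median from 0.12 to 0.39 and the KO male over KO female median from -0.25 to 0.02. The count above both controls ran from 18 to 23 in males, against 30.2% to 38.4% of genes, and from 20 to 31 in females, against 34.5% to 40.2%. With at most 2 mismatches, 13.8% of the genes held the DR1 repeat, against 31% with at most 3.

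No paired analysis was possible because the recovered libraries carry no pool numbers. The shallower control male library, with 2286663 reads in genes, limits the low genes most: 5 reads were recovered there for Vnn1 and 4 for Acot3.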
